A study of Mus musculus with 28 samples.

Results

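Arc, Npas4, Homer1, Nptx2, Plk2, Rgs2 and Tiparp are genes whose transcripts rise after neuronal activity, and they were followed through 28 libraries of mouse dorsal hippocampus. They were chosen by symbol, as 7 of the 50686 genes of the deposited count table, and each symbol matched 1 Ensembl gene. All 7 passed the filter on low counts that left 16735 genes for testing. Every library came from male C57Bl6 mice. The Basal group (n = 4) had neither conditioning nor treatment. The other groups all underwent auditory fear conditioning, a task that couples a tone to a foot shock, and were labelled Vehicle (n = 4), Cort (n = 5), RU486 (n = 5), C108 (n = 5) or C118 (n = 5). Cort commonly stands for corticosterone, the principal stress glucocorticoid of rodents. RU486 is mifepristone, which blocks the glucocorticoid receptor as well as the progesterone receptor. C108 and C118 are ligands of the glucocorticoid receptor known here by code name alone. Doses, times after conditioning and ages are not stated in the labels, which also do not say that each library is a separate mouse, so the p-values below measure the spread between these libraries. Basal differs from the other groups in conditioning and in treatment together, so these cannot be told apart.

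Synaptic activity raises calcium in a neuron, which activates transcription factors such as CREB, SRF and MEF2 at genes that need no new protein synthesis to be switched on. Some of these genes encode further transcription factors, as Npas4 does, and others act directly on synapses, as Arc, Homer1, Nptx2 and Plk2 do. In the hippocampus the response follows learning and exploration and fades within hours for the fastest genes, and glucocorticoids released by stress act on the same neurons through their nuclear receptors.

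Library totals ran from 16.24 to 20.3 M gene counts (M, 10 to the power of 6). Levels are given as CPM (counts per M of the library total), computed after TMM adjustment of library sizes. Libraries are named by group and by the sample number of their title. Markers of dentate gyrus, CA1 and neurons were expressed in every library, and the summed level of the 6 neuron markers ran from 5280 to 7440 CPM over all libraries. Vehicle 16 stood apart in markers of neighbouring regions. Scores below are the mean log2 CPM of a list after each gene is centred on the 28 libraries, and Vehicle 16 scored 2.36 for thalamus markers, 1.09 for neocortex markers and -1.15 for CA1 markers. Vehicle 29 had the lowest dentate gyrus score, at -0.45. The members' comparisons with Vehicle are therefore also given without both of these libraries. Cort 36, C118 38 and C108 39, which follow each other in sample number, also stood apart together. They scored 0.26, 0.28 and 0.31 for neuron markers, -0.43, -0.61 and -0.58 for astrocyte markers and -0.80, -1.35 and -1.40 for endothelial markers, in each case the highest or lowest 3 of the series. In whole tissue, fewer cells of a type and less RNA per cell cannot be told apart.

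The genes lie on 6 chromosomes of GRCm38 (mm10). Arc lies at chr15:74669083-74672570 on the minus strand, Npas4 at chr19:4984355-4990316 on the minus strand and Rgs2 at chr1:143999338-144004161 on the minus strand. Homer1 lies at chr13:93299635-93405129, Plk2 at chr13:110395046-110400844, Nptx2 at chr5:144545902-144557478 and Tiparp at chr3:65528410-65555518, all on the plus strand. Homer1 has 12 annotated transcripts, and a count per gene does not separate its activity-induced short form from the long forms. It also contains the same-strand transcripts Gm47075 and Gm47088, whose reads may be shared with it, and the start of Tiparp overlaps 970 bases of the opposite-strand pseudogene 4931440P22Rik.

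RefSeq promoter sequences (GRCm38.p6) were at hand for 5 of the 7 genes, Npas4, Homer1, Plk2, Rgs2 and Tiparp, in 6 windows of 250 bases before and 50 bases after a start site. They are shown because CREB, a main activity-dependent factor, binds the cyclic AMP response element (CRE), TGACGTCA, and its shorter core TGACG. The 250 bases before the start site follow, 5′ to 3′ on the strand of the gene, with each CRE or core (TGACG, or CGTCA where it lies on the opposite strand) in capitals. The Npas4 sequence is chr19:4989972-4990221 (minus strand), Homer1 is chr13:93303507-93303756 (plus strand, a start site inside the annotated gene), Plk2 is chr13:110394794-110395043 (plus strand), Rgs2 is chr1:144004150-144004399 (minus strand) and Tiparp is chr3:65528197-65528446 (plus strand).
Npas4: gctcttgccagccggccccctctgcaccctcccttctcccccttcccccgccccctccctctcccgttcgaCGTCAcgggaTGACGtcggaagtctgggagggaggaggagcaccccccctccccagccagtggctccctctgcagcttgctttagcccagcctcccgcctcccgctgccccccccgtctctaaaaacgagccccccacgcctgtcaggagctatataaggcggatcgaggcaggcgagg
Homer1: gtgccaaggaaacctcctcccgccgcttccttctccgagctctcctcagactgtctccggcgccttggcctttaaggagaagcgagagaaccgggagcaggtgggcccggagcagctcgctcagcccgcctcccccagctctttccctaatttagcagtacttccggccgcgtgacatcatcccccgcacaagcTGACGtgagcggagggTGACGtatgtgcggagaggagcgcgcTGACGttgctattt
Plk2: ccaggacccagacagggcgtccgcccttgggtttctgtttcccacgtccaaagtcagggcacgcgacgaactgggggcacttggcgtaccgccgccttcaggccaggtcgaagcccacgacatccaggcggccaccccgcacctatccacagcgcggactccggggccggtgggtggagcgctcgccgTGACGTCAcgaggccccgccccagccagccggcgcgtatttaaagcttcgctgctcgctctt
Rgs2: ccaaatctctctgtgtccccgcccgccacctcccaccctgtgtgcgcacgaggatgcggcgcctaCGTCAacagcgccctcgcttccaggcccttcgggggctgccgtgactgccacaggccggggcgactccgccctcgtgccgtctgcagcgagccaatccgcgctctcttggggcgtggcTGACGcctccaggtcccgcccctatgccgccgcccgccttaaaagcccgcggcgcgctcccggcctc
Tiparp: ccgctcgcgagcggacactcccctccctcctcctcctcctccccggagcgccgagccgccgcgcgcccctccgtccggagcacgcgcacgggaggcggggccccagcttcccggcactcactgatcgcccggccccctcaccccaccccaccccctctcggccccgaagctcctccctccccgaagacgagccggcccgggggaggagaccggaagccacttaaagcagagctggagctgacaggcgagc
Plk2 held the full CRE, starting 62 bases before the start site, an element found in 1.79% of 32851 RefSeq promoter windows of the same length. The core, which overlaps the full element in Plk2, was present in 4 of the 6 windows, each of a different gene, against 20.8% of all windows on either strand. Npas4 held 2 cores, 179 and 169 bases before its start site, and Homer1 held 3, at 56, 40 and 14 bases. Rgs2 held 2, at 185 and 67 bases, and Plk2 had a further core 22 bases into the transcript. The second Homer1 window and the Tiparp window held neither. None of the 6 windows held a MEF2-like site (3.69% of all windows), a glucocorticoid response element (0.475%), a dioxin response element (TTGCGTG, 1.16%), a CArG box (1.63%) or the letters TATAAA (13.6%). These are matches of letters in a short window and no measure of binding.

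Per kilobase of exon, the mean level over the 28 libraries was highest for Plk2 at 60 CPM per kb and Arc at 34.5 CPM per kb. Rgs2 (12.1), Nptx2 (12) and Homer1 (11.2 CPM per kb) followed close together, then Tiparp at 7.02 and Npas4 at 1.1 CPM per kb. Npas4 rested on 32 to 189 counts per library and the other 6 genes on at least 335. The genes differed widely in how much replicate libraries varied. The biological coefficient of variation (BCV, the spread between libraries of a group beyond counting noise) was 0.387 for Npas4 and 0.344 for Arc, above 96.7% and 95.3% of tested genes. It was 0.171 for Nptx2, 0.138 for Plk2, 0.13 for Tiparp, 0.115 for Homer1 and 0.104 for Rgs2, against a median of 0.122. Arc ranged 5.18-fold and Npas4 5.79-fold between the lowest and the highest library, whereas Homer1 ranged 1.65-fold and Rgs2 1.78-fold.

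**Figure D1:**
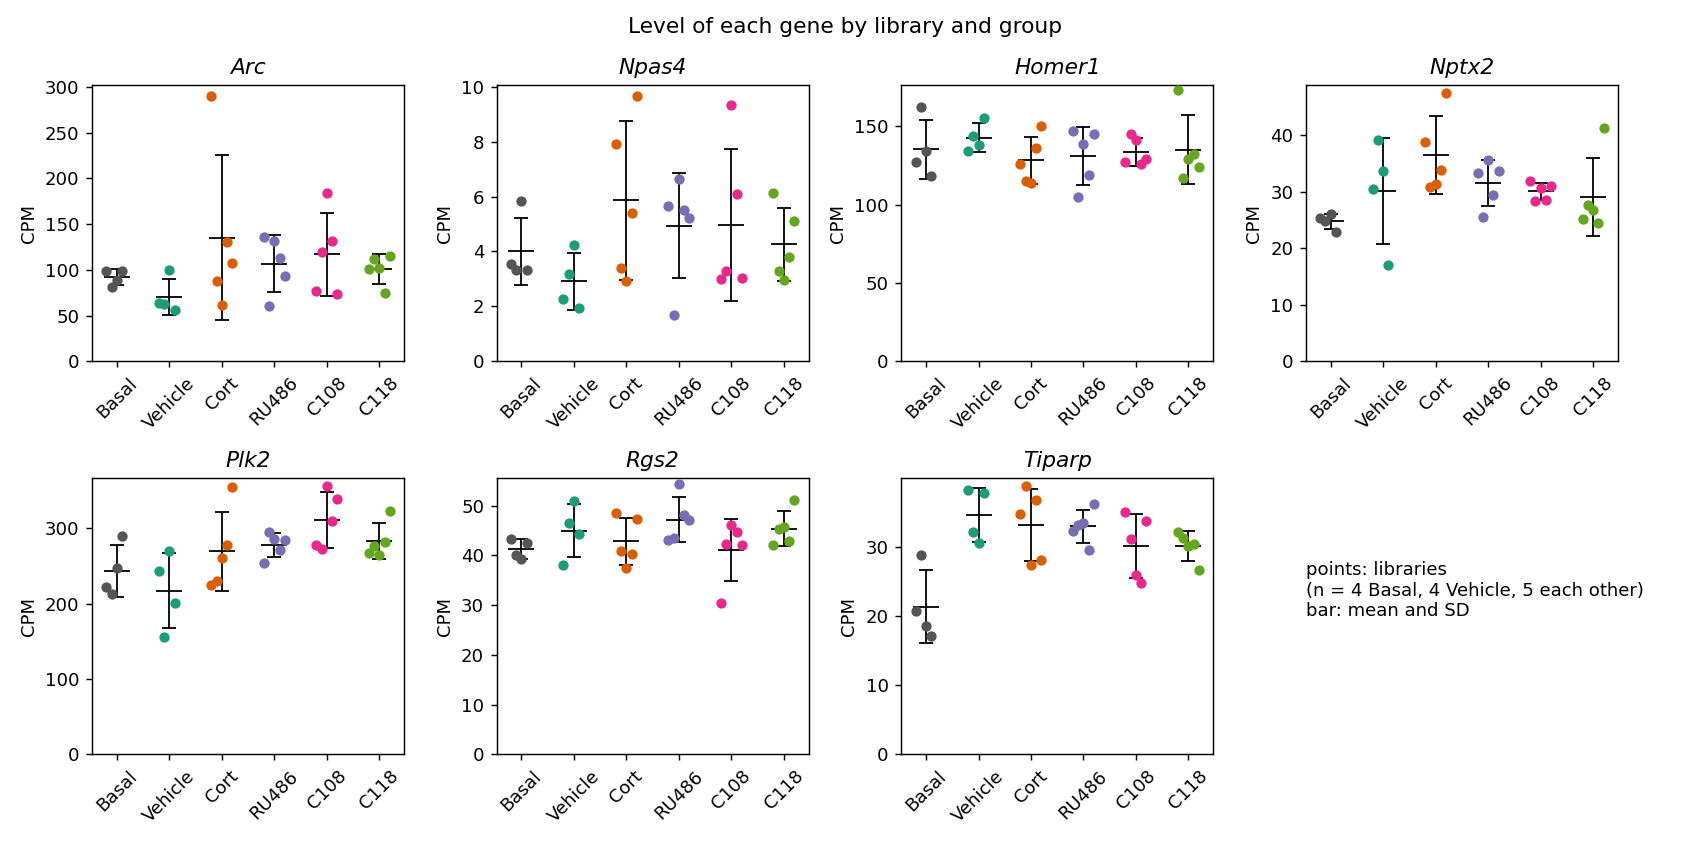
Level in CPM (linear axes from 0) of the 7 genes in each of 28 libraries, by group, with bars for the mean and SD (n = 4 in Basal and Vehicle, n = 5 in each other group). Tiparp sits lowest in Basal (17.1 to 28.9 CPM), Arc and Npas4 spread widely within groups, and Homer1 and Rgs2 stay within narrow bands.

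Of the 7 genes, Tiparp alone differed between the groups by an edgeR quasi-likelihood test of all 6 groups together (adjusted p = 0.0137). That is 1 of 7 members, beside 4.73% of all tested genes. The adjusted p-values of the others were 0.124 for Plk2, 0.313 for Nptx2, 0.466 for Arc, 0.534 for Npas4, 0.576 for Rgs2 and 0.907 for Homer1. Once scores for thalamus and neocortex entered the fit, the adjusted p of Tiparp was 0.129, and over its 11 alternatives it ran from 0.000481 to 0.129. Leaving out Basal 1, Basal 14 or Basal 27 also ended the call (adjusted p = 0.0769, 0.11 and 0.0934). By DESeq2, Plk2 passed as well (adjusted p = 0.0417, against 0.0417 to 0.805 over its alternatives).

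Tiparp, a mono-ADP-ribosyltransferase that is induced by the aryl hydrocarbon receptor and represses it, was higher after conditioning with vehicle than in Basal. Its level in Basal 1, 9, 14 and 27 was 20.8, 28.9, 18.6 and 17.1 CPM, and in Vehicle 3, 16, 23 and 29 it was 38.2, 32.1, 30.5 and 37.8 CPM. Every Vehicle library lay above every Basal library, and Basal 9 was the closest. The means were 34.6 ± 3.93 CPM (SD, n = 4) and 21.4 ± 5.28 CPM (SD, n = 4), which gave a log2 fold change of 0.70 ± 0.14 (SE; 95% interval 0.42 to 0.98) with an adjusted p of 0.0023 by edgeR. Tiparp was the only member called in this comparison, 1 of 7 beside 4.11% of tested genes, and 10.2% of tested genes had ranges that did not overlap. The call held in all 12 alternatives (adjusted p 8.22e-05 to 0.0398) and in each of the 28 omissions of 1 library (adjusted p 7.73e-05 to 0.0193). The log2 fold change was 0.69 without Vehicle 16 and Vehicle 29 (adjusted p = 0.023).

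Tiparp stayed above Basal in each ligand group. It measured 34.8, 38.8, 27.4, 36.8 and 28.1 CPM in Cort 4, 11, 17, 30 and 36, and 32.3, 33.2, 33.5, 29.6 and 36.2 CPM in RU486 6, 12, 19, 25 and 32. In C108 8, 21, 26, 34 and 39 it was 35.1, 31.1, 26, 24.8 and 33.8 CPM, and in C118 7, 13, 20, 33 and 38 it was 32.2, 31.3, 30.2, 30.4 and 26.6 CPM. All RU486 libraries exceeded all Basal libraries (as in 10.8% of tested genes), while in Cort, C108 and C118 at least 1 library fell below Basal 9. The log2 fold change against Basal was 0.64 ± 0.13 in Cort (adjusted p = 0.0022), 0.63 ± 0.13 in RU486 (0.00496), 0.50 ± 0.13 in C108 (0.0213) and 0.50 ± 0.13 in C118 (0.0278; edgeR, SE). These comparisons share the 4 Basal libraries with each other and with Vehicle against Basal. Members called were 2 of 7 in Cort, where Nptx2 was the other, beside 6.27% of tested genes, and Tiparp alone in RU486 (5.45%), C108 (6.04%) and C118 (3.87%).

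The C108 and C118 calls of Tiparp were the less firm ones. The C108 call did not hold when Basal 1 was left out (adjusted p = 0.0779), nor without Basal 14 (0.113), Basal 27 (0.0804) or C108 39 (0.0664). It also missed the threshold without Cort 36, C118 38 and C108 39 (0.0532). The C118 call was lost without Basal 1 (0.092), Basal 14 (0.145), Basal 27 (0.117), C118 7 (0.0529), C118 13 (0.0563) or C118 33 (0.0583). Once scores for thalamus and neocortex entered the fit, none of the 4 ligand groups passed against Basal (adjusted p 0.116 to 0.301), although the log2 fold changes stayed between 0.46 and 0.58. Beside this, the summed level of all 8 neocortex markers was 164 to 175 CPM in Basal, 128 to 247 in Vehicle, and 120 to 152 CPM over the 4 ligand groups, so that every Basal library exceeded every ligand library. Within groups the neocortex score and Tiparp had a correlation of -0.01, and the part of neocortex tissue in the result was not tested further. Endothelial markers were lower than in Basal as well, with 2 of 6 called in Cort, 1 in RU486, 4 in C108 and 2 in C118, 0 called higher, and median log2 fold changes of -0.90, -0.64, -1.16 and -0.85. Their summed level was 80.2 to 121 CPM in Basal and 21.6 to 90.3 CPM over the 4 ligand groups. Of 6 microglia markers, 2 were called lower in Cort and 1 in C108, with 0 called higher and list medians of 0.03 and 0.04. Tiparp had within-group correlations of 0.16 with the endothelial score and 0.15 with the microglia score, and the part of these cells in the result was not tested.

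Against Vehicle, no ligand changed Tiparp by this test. The log2 fold changes (edgeR, with 95% intervals) were -0.06 (-0.32 to 0.20) for Cort, -0.07 (-0.33 to 0.19) for RU486, -0.20 (-0.46 to 0.06) for C108 and -0.20 (-0.46 to 0.06) for C118. Without Vehicle 16 and Vehicle 29 the values were -0.05, -0.06, -0.19 and -0.19. Each interval allows a change of at most about the size given by its bounds, and an equal level was not shown.

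The Basal libraries that were low in Tiparp were also low in the 15 glucocorticoid receptor targets, a list of Fkbp5, Cdkn1a, Zbtb16, Nfkbia and other genes that the activated receptor induces. The target score was -0.45 in Basal 9, the Basal library with the most Tiparp, and -1.21 to -1.04 in the other 3 Basal libraries. Vehicle libraries scored 0.19 to 0.45 and Cort libraries 0.29 to 0.63. The range was -0.35 to 0 for RU486, -0.23 to 0.38 for C108 and -0.03 to 0.19 for C118. This list was chosen with earlier results of these data known, so its counts and its score are given as a description. Of the 15 targets, 13 rose and 0 fell in Vehicle against Basal, beside 4.11% of tested genes called. The median log2 fold change was 0.95, against 0 over all tested genes. Among those that rose was Fkbp5, a co-chaperone of the receptor, from 67.5 ± 9.53 to 130 ± 13 CPM (SD, n = 4 each; adjusted p = 1.8e-06, edgeR). With Vehicle 16 and Vehicle 29 left out, 12 of the 15 rose and 0 fell. Across the 28 libraries, deviations of Tiparp from its group means had a Pearson r of 0.78 with those of the target score (Spearman rho 0.71). Without Basal 9 and C108 21, the libraries farthest from the median, r was 0.73. These points share their library, its depth and its dissection, so r is given as a description.

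Nptx2, the secreted neuronal pentraxin Narp, clusters AMPA receptors at excitatory synapses, and it was higher with Cort than in Basal. Its level in Basal 1, 9, 14 and 27 was 25.4, 24.9, 26 and 22.9 CPM, and in Cort 4, 11, 17, 30 and 36 it was 38.9, 30.8, 31.4, 33.9 and 47.4 CPM. The groups did not overlap, as in 10% of tested genes. The log2 fold change was 0.56 ± 0.17 (SE; 95% interval 0.21 to 0.90; adjusted p = 0.0462, edgeR). The call lay close to the threshold. It was lost in 16 of the 28 omissions of 1 library, including each Basal library (adjusted p 0.0739 to 0.113), Cort 4 (0.0762), Cort 30 (0.057) and Cort 36 (0.135), and in 7 of 12 alternatives (0.00789 to 0.417 over all 12).

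Some markers of other cells and of regions moved in the same comparison. In Cort against Basal the microglia markers Cx3cr1 and P2ry12, the astrocyte marker Sox9 and the endothelial markers Cldn5 and Tek were called lower, that is 2 of 6, 1 of 7 and 2 of 6 markers, with 0 called higher, and 0 of 6 neuron markers were called. The median log2 fold change of the whole list was 0.03 for microglia, -0.12 for astrocyte, -0.90 for endothelial and -0.04 for neuron markers. The summed level of the microglia markers was 312 to 347 CPM in Basal and 250 to 321 CPM in Cort, that of the astrocyte markers 1890 to 2150 and 1530 to 2200 CPM, and that of the endothelial markers 80.2 to 121 and 34.9 to 84.9 CPM. Within groups Nptx2 had r = -0.52 with the microglia score, -0.49 with the astrocyte score and 0.45 with the neuron score over 28 libraries. Without C118 38 and C108 39 the first 2 values were -0.41 and -0.36, and without Cort 36 and C118 38 the neuron value was 0.12. Of 8 neocortex markers, 3 were called lower and 0 higher in Cort against Basal (median -0.39), and of 12 dentate gyrus markers 0 and 1 (median 0.07). Within groups Nptx2 had r = 0.48 with the CA3 score and 0.41 with the dentate gyrus score. Without Vehicle 29 and Vehicle 16 the CA3 value was 0.04, and without Vehicle 29 and C118 7 the dentate gyrus value was 0.32. The part of these cells in the Nptx2 result was not tested, nor that of the regions beyond the fits with region scores given below. Cort 36, the library with the most Nptx2, had the lowest microglia and astrocyte scores of its group (-0.45 and -0.43) and its highest neuron score. Without Cort 36, C118 38 and C108 39 the log2 fold change of Nptx2 was 0.45 (adjusted p = 0.0763).

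In the other groups the mean of Nptx2 lay between those of Basal and Cort, though single libraries did not all do so. It measured 30.5, 39.1, 33.7 and 17.1 CPM in Vehicle 3, 16, 23 and 29, and 33.3, 25.6, 35.7, 29.5 and 33.7 CPM in RU486 6, 12, 19, 25 and 32. In C108 8, 21, 26, 34 and 39 it was 31.9, 28.4, 30.6, 28.6 and 31 CPM, and in C118 7, 13, 20, 33 and 38 it was 25.1, 27.6, 26.8, 24.5 and 41.3 CPM. Of the Vehicle libraries, 3 lay above all of Basal and Vehicle 29 was the lowest of the series. C108 also lay wholly above Basal (9.35% of tested genes had such ranges), with a log2 fold change of 0.28 ± 0.17 (adjusted p = 0.34). The Vehicle mean of 30.1 ± 9.35 CPM (SD, n = 4) did not differ from Basal by the test (log2 fold change 0.28 ± 0.18, adjusted p = 0.438), nor did any ligand from Vehicle, with log2 fold changes of 0.28 for Cort, 0.07 for RU486, 0.00 for C108 and -0.05 for C118. With 1 library left out, Vehicle against Basal ran from 0.13 (without Vehicle 16) to 0.47 (without Vehicle 29) and Cort against Vehicle from 0.08 (without Vehicle 29) to 0.43 (without Vehicle 16). Without both of these libraries the values were 0.37 in Vehicle against Basal and 0.18, -0.03, -0.09 and -0.14 in the ligands against Vehicle.

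Plk2, a polo-like kinase that weakens and prunes synapses of overactive neurons, had its lowest mean in Vehicle and its highest in C108. Its level in Vehicle 3, 16, 23 and 29 was 243, 155, 270 and 201 CPM, and in C108 8, 21, 26, 34 and 39 it was 277, 272, 356, 309 and 338 CPM. Every C108 library lay above every Vehicle library, as in 3.13% of tested genes, although Vehicle 23 came within a few CPM of C108 21. The means were 310 ± 36.9 CPM (SD, n = 5) and 217 ± 50.2 CPM (SD, n = 4), which gave a log2 fold change of 0.52 ± 0.13 (95% interval 0.25 to 0.79) with an unadjusted p of 0.000525 and an adjusted p of 0.0738 by edgeR. The difference therefore missed the threshold, and 0 of 7 members passed in this comparison beside 0.215% of tested genes. By DESeq2 it passed, with a log2 fold change of 0.51 (adjusted p = 0.0163, and 0.0163 to 1 over its 12 alternatives), and limma-voom passed 0 of 7. It also passed without Vehicle 23 (log2 fold change 0.64, adjusted p = 0.00897) and without Cort 36 (0.51, 0.0446), and with runs of consecutive sample numbers as a block (0.47, 0.036).

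The Vehicle libraries lowest in Plk2 were also the lowest of that group in markers of CA1, a field of the hippocampus. The summed level of all 8 CA1 markers was 370 to 917 CPM in Vehicle and 841 to 1080 CPM in C108, and none of the 8 was called between them (6 higher at an unadjusted p under 0.05). Vehicle 16, with 155 CPM of Plk2, had the lowest CA1 score at -1.15, and Vehicle 29, with 201 CPM, the next at -0.47. Vehicle 3 scored -0.11 and Vehicle 23 scored 0.24, while C108 libraries scored 0.10 to 0.46. Deviations from group means of Plk2 and of the CA1 score had r = 0.73 (rho 0.57) over 28 libraries, and r = 0.55 without Vehicle 16 and Vehicle 23. Such a relation was not particular to CA1. Within groups Plk2 had r = -0.65 with the neocortex score, -0.55 with the endothelial and 0.55 with the neuron score. It had r = -0.5 with both the thalamus and the red blood cell score, and 0.04 with the dentate gyrus score. With dentate gyrus and CA1 scores as covariates, the log2 fold change of Plk2 in C108 against Vehicle was 0.12 (adjusted p = 1). With thalamus and neocortex scores it was 0.28 (0.687), and without Vehicle 16 and Vehicle 29 it was 0.28 (0.835). In C108 against Vehicle, 10 of 10 thalamus markers were lower at an unadjusted p under 0.05, with 1 called (median log2 fold change -1.65). Of 8 neocortex markers 4 were lower and 0 higher at that level, with 1 called, and of 4 red blood cell markers 4 were lower, with 0 called. The part of any of these regions or cells in the Plk2 difference was not tested further.

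The Plk2 means of the remaining groups lay between those of Vehicle and C108. It measured 222, 213, 247 and 290 CPM in Basal 1, 9, 14 and 27, and 225, 230, 260, 277 and 355 CPM in Cort 4, 11, 17, 30 and 36. In RU486 6, 12, 19, 25 and 32 it was 254, 295, 286, 271 and 284 CPM, and in C118 7, 13, 20, 33 and 38 it was 267, 276, 264, 282 and 323 CPM. RU486 and C118 libraries were tightly grouped, and each overlapped Vehicle 23 alone. Against Vehicle, the log2 fold change was 0.38 ± 0.13 in C118 (adjusted p = 0.397), 0.36 ± 0.13 in RU486 (0.417) and 0.31 ± 0.13 in Cort (0.357; edgeR, SE). Vehicle against Basal gave -0.16 ± 0.14 (adjusted p = 0.59). Without Vehicle 16 and Vehicle 29 it turned to 0.08, and the values against Vehicle became 0.14 in C118, 0.12 in RU486 and 0.07 in Cort.

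**Figure D2:**
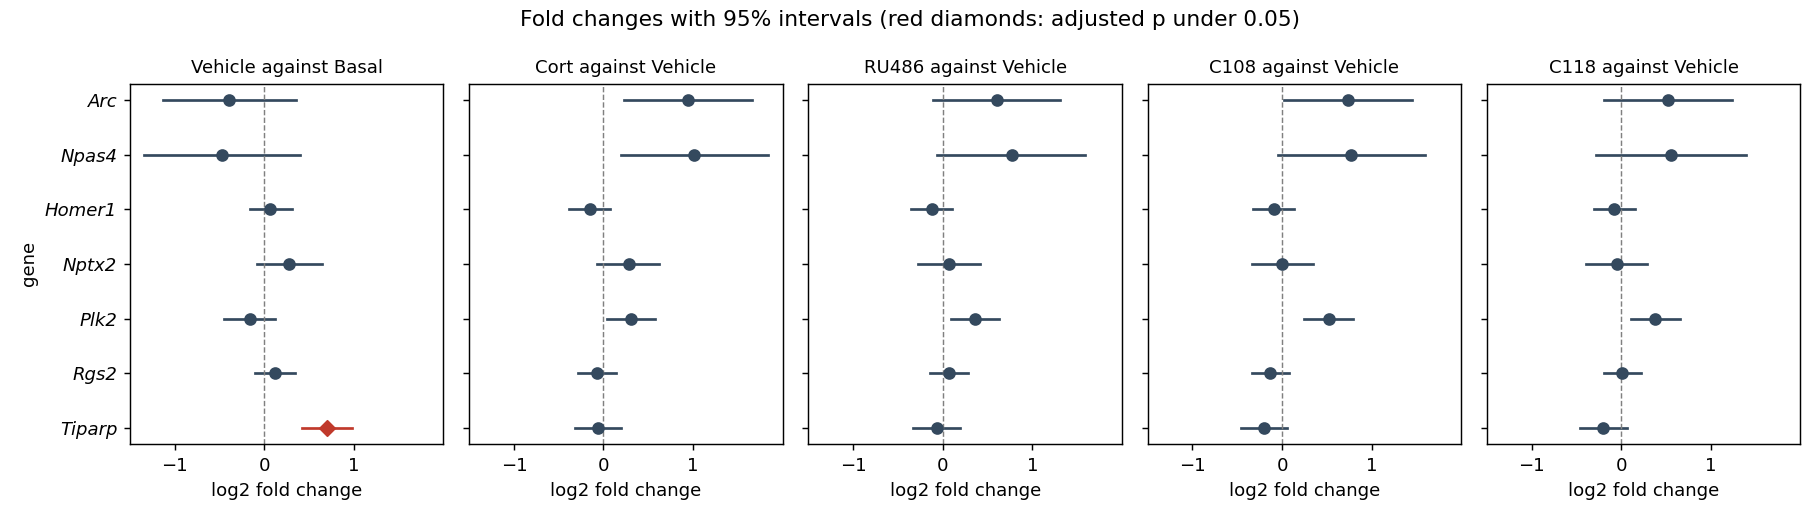
Log2 fold change (x axis) of each gene (y axis) in Vehicle against Basal and in each ligand against Vehicle, with 95% intervals from the edgeR fit of 28 libraries. The red diamond, Tiparp at 0.70 in Vehicle against Basal, marks the call at an adjusted p under 0.05 in these 5 panels. The 4 ligand panels share the Vehicle libraries.

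Arc, whose protein drives removal of AMPA receptors from synapses, had its lowest mean in Vehicle and its highest in Cort, with wide overlap. Its level in Vehicle 3, 16, 23 and 29 was 63.3, 62.9, 99.5 and 56.1 CPM, and in Basal 1, 9, 14 and 27 it was 99, 81.3, 88.8 and 98.7 CPM. In Cort 4, 11, 17, 30 and 36 it was 290, 88.1, 61, 130 and 107 CPM. Vehicle 23 lay at the level of Basal while the other 3 Vehicle libraries lay below it, and Cort held both the highest library of the series and one as low as Vehicle. Arc measured 136, 60.6, 131, 113 and 93.2 CPM in RU486 6, 12, 19, 25 and 32, and 76.3, 120, 184, 132 and 73.2 CPM in C108 8, 21, 26, 34 and 39. In C118 7, 13, 20, 33 and 38 it was 101, 112, 102, 74.1 and 115 CPM. Each ligand group overlapped Vehicle.

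None of these differences in Arc passed. The log2 fold change in Vehicle against Basal was -0.39 ± 0.36 (adjusted p = 0.638). Against Vehicle it was 0.94 ± 0.35 in Cort (95% interval 0.23 to 1.66, adjusted p = 0.294), 0.74 ± 0.34 in C108 (0.274), 0.60 ± 0.34 in RU486 (0.69) and 0.52 ± 0.34 in C118 (0.737; edgeR, SE). Over the omissions of 1 library the Cort value ran from 0.45 to 1.16, with the low end without Cort 4. In RU486 and C118 the 95% intervals, -0.11 to 1.31 and -0.19 to 1.23, hold both a log2 fold change of 0 and one of 1. Without Vehicle 16 and Vehicle 29 the log2 fold changes against Vehicle were 0.73 in Cort, 0.53 in C108, 0.39 in RU486 and 0.31 in C118, and Vehicle against Basal was -0.18.

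Npas4, a transcription factor that is induced almost only by calcium and directs inhibitory synapse formation, followed the same order of group means as Arc. Its level in Basal 1, 9, 14 and 27 was 3.53, 3.34, 5.84 and 3.33 CPM, and in Vehicle 3, 16, 23 and 29 it was 2.27, 3.18, 4.24 and 1.94 CPM. In Cort 4, 11, 17, 30 and 36 it was 7.93, 3.39, 2.94, 5.39 and 9.67 CPM. Of the Cort libraries, 3 lay above all of Vehicle. Npas4 measured 5.65, 1.67, 6.65, 5.51 and 5.22 CPM in RU486 6, 12, 19, 25 and 32, and 3.01, 3.28, 9.33, 6.09 and 3.05 CPM in C108 8, 21, 26, 34 and 39. In C118 7, 13, 20, 33 and 38 it was 6.12, 3.3, 2.95, 3.81 and 5.12 CPM. RU486 12, at 1.67 CPM, was the lowest library of the series, also below its group in Arc, and C108 26 was high in both genes.

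The Npas4 differences did not pass either. The log2 fold change was -0.47 ± 0.42 in Vehicle against Basal (adjusted p = 0.626). Against Vehicle it was 1.01 ± 0.40 in Cort (95% interval 0.19 to 1.84, adjusted p = 0.322), 0.77 ± 0.40 in RU486 (0.653), 0.77 ± 0.40 in C108 (0.316) and 0.55 ± 0.40 in C118 (0.768; edgeR, SE). With Vehicle 16 and Vehicle 29 left out, these 4 values were 0.85, 0.60, 0.61 and 0.39, and Vehicle against Basal was -0.31.

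Homer1 encodes a scaffold that links metabotropic glutamate receptors to the postsynaptic density, and no comparison called it. Group means ran from 128 ± 15 CPM in Cort to 143 ± 9.01 CPM in Vehicle (SD, n = 5 and 4), with Basal at 136 ± 18.9, C118 at 135 ± 22, C108 at 134 ± 8.91 and RU486 at 131 ± 18.2 CPM. Single libraries ran from 105 CPM in RU486 12 to 173 CPM in C118 7, and all groups overlapped. The largest log2 fold change among the comparisons with Basal or Vehicle was -0.15 in Cort against Vehicle, with a 95% interval of -0.38 to 0.07 (adjusted p = 0.592, edgeR). Rgs2, which shortens signalling by Gq-coupled receptors, was not called in any comparison either. Its means ran from 41.1 ± 6.16 CPM in C108 to 47.2 ± 4.52 CPM in RU486 (SD, n = 5 each), with Basal at 41.3 ± 1.88, Cort at 42.9 ± 4.71, Vehicle at 44.9 ± 5.37 and C118 at 45.4 ± 3.57 CPM. The lowest library was C108 8 at 30.5 CPM and the highest RU486 19 at 54.3 CPM. Its largest log2 fold change among those comparisons, 0.19 in RU486 against Basal, had a 95% interval of -0.01 to 0.40 (adjusted p = 0.267, edgeR). Without Vehicle 16 and Vehicle 29 the ligands against Vehicle gave -0.08 to -0.01 for Homer1 and -0.12 to 0.08 for Rgs2.

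Over the members together, the comparisons with Vehicle gave no call by edgeR. In Cort against Vehicle 0 of 7 passed, beside 0.00598% of tested genes, and 3 of 7 (Arc, Npas4 and Plk2, all higher) had an unadjusted p under 0.05, against 11.6% of tested genes. In RU486 and in C118 against Vehicle 0 of 7 passed, beside 0% of tested genes in each, and Plk2 alone had an unadjusted p under 0.05 (8.16% and 8.01% of tested genes). In C108 against Vehicle 2 of 7, Plk2 and Arc, passed that level, against 17.4%. DESeq2 and limma-voom passed 0 of 7 in Cort, RU486 and C118 against Vehicle. The median log2 fold change of the 7 genes was 0.28 in Cort, 0.07 in RU486, 0.00 in C108 and 0.01 in C118 against Vehicle, where the median of all tested genes was 0.00 or 0.01. With Vehicle 16 and Vehicle 29 left out it was 0.07, 0.08, -0.02 and 0.03. Arc, Npas4 and Plk2 kept log2 fold changes above 0 in each of these 4 comparisons then. It was 0.07 in Vehicle against Basal, 0.55 in Cort against Basal, 0.22 in RU486, 0.31 in C108 and 0.14 in C118 against Basal.

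The ligands were also compared directly, in 6 pairs of groups, with doses that the labels do not give. No member passed in any pair by edgeR, DESeq2 or limma-voom, beside 0.0538% of tested genes in Cort against RU486 and 0% in each of the other 5. At an unadjusted p under 0.05, Nptx2 was higher in Cort than in C118 (log2 fold change 0.33, 95% interval 0.00 to 0.65), and Rgs2 was higher in RU486 than in C108 (0.20, 0.00 to 0.40). These are 2 of 42 tests, and 4.26% and 5.74% of tested genes reached that level in these pairs. For the agonist and the antagonist, Cort against RU486, the interval was -0.24 to 0.26 for Tiparp, -0.30 to 0.21 for Plk2, -0.24 to 0.18 for Homer1, -0.33 to 0.06 for Rgs2 and -0.11 to 0.53 for Nptx2. It was -0.32 to 1 for Arc and -0.49 to 0.99 for Npas4. The Arc value of 0.34 turned to -0.15 without Cort 4. For C108 against C118, the intervals were -0.24 to 0.25 for Tiparp, -0.11 to 0.39 for Plk2 and -0.44 to 0.88 for Arc. These intervals bound the difference at these doses and do not show that the ligands act alike.

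When the groups were ordered by mean, only 1 of 35 pairs of neighbours was called, Tiparp in C118 over Basal, and in 0 of 35 did the ranges lie apart. Arc and Npas4 shared the order Cort, C108, RU486, C118, Basal, Vehicle. Plk2 ran from C108 over C118, RU486, Cort and Basal to Vehicle, and Nptx2 from Cort over RU486, Vehicle, C108 and C118 to Basal. Tiparp ran from Vehicle over Cort, RU486, C108 and C118 to Basal. Homer1 ran from Vehicle over Basal, C118, C108 and RU486 to Cort, and Rgs2 from RU486 over C118, Vehicle, Cort and Basal to C108. Apart from Tiparp in C118 over Basal, the steps between neighbours in all of these orders lie within the spread between libraries.

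Libraries of one group that were high in one of these genes tended to be high in some others. Deviations from group means had r = 0.72 between Arc and Npas4 (rho 0.70, and r = 0.72 without the 2 libraries farthest from the median of Arc). The value was 0.62 between Arc and Rgs2 (rho 0.59), 0.57 between Npas4 and Rgs2 (rho 0.55), 0.52 between Npas4 and Nptx2 (rho 0.56) and 0.51 between Npas4 and Homer1 (rho 0.47). The other pairs among Arc, Npas4, Homer1, Nptx2 and Rgs2 ran from 0.09 (Homer1 and Rgs2) to 0.35 (Nptx2 and Rgs2). Plk2 had r of -0.09 with Homer1, 0.04 with Arc, 0.18 with Nptx2 and 0.26 with both Npas4 and Rgs2. Tiparp had 0.29 with Homer1 and values from -0.20 (Arc) to -0.43 (Plk2) with the other 5. All of these are over 28 libraries that share depth, dissection and scaling within each library.

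**Figure D3:**
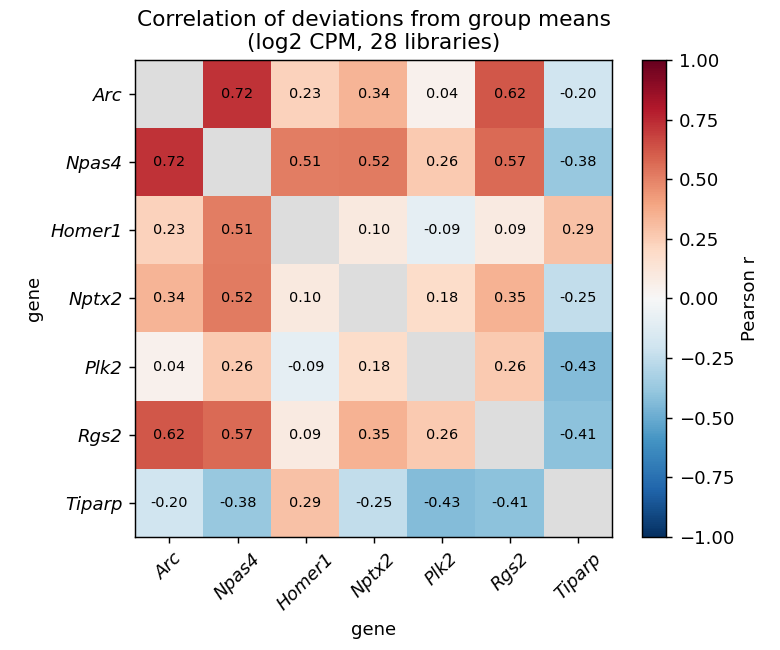
Pearson r between the 7 genes of the deviations of log2 CPM from group means over 28 libraries, as numbers and colour (scale from -1 to 1). Arc and Npas4 give the highest value, 0.72, and the lowest is -0.43 between Plk2 and Tiparp.

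The genes most like each member in these deviations, among 14584 tested genes with a mean of at least 1 CPM, differed in kind. For Arc they were Nr4a1 (r = 0.89), Egr2 (0.86) and Stk40 (0.84), the first 2 being immediate early transcription factors. For Npas4 they were Junb (0.80), Egr1 (0.78) and Rhobtb2 (0.78), and for Homer1 they included Nlk (0.74) and Fosb (0.73). Nptx2 was most like Gls2 (0.89), Zswim4 (0.88) and B4galnt1 (0.88), and Plk2 most like Pkp2 (0.93), Gria1 (0.91), which encodes an AMPA receptor subunit, and Sept9 (0.88). Rgs2 was most like Dpy30 (0.84), Cisd3 (0.82) and Eif1b (0.81). Tiparp was most like Polr3e (0.83), Trp53inp1 (0.77) and Nfkbia (0.77), the inhibitor of NF-kappaB that is on the glucocorticoid receptor target list. Plk2 had 244 genes at r of 0.7 or more and Nptx2 had 149, against 58 for Rgs2, 42 for Arc, 19 for Npas4, 16 for Tiparp and 3 for Homer1.

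The wider programme of immediate early transcription factors gave few calls. Of 20 such genes, 0 rose and 1 fell in Vehicle against Basal, close to the 4.11% of all tested genes called there. The one that fell was Nr4a3, an orphan nuclear receptor, from 91.7 ± 13.5 to 52.3 ± 9.31 CPM (SD, n = 4 each; log2 fold change -0.81 ± 0.16, adjusted p = 0.00261, edgeR). The median log2 fold change was -0.28, against 0.00 over all tested genes, with 1 higher and 4 lower at an unadjusted p under 0.05. DESeq2 and limma-voom each added a rise of Maff. The median was -0.12 without Vehicle 16 and Vehicle 29, and Nr4a3 then gave -0.61 (adjusted p = 0.0995). In that fit 0 of the 20 were called higher and 1 lower, a gene other than Nr4a3. In Cort against Basal 1 rose and 1 fell, beside 6.27% of tested genes called. Maff rose from 0.392 ± 0.258 to 1.08 ± 0.419 CPM (1.46 ± 0.40, adjusted p = 0.0255), and Nr4a3 fell (-0.52 ± 0.15, adjusted p = 0.0344; edgeR). By edgeR 0 of 20 passed in RU486, C108 or C118 against Basal, beside 5.45%, 6.04% and 3.87% of tested genes. At an unadjusted p under 0.05, 1 was higher and 3 lower in RU486, 1 and 2 in C108, and 1 and 2 in C118. DESeq2 passed 2 as lower in RU486 against Basal and limma-voom 1, and neither passed any in C108 or C118. Against Vehicle, 0 of 20 passed in any ligand by edgeR, DESeq2 or limma-voom. The medians were 0.25 in Cort, 0.18 in RU486, 0.30 in C108 and 0.23 in C118, and 8, 6, 6 and 5 of the 20 were higher, with 0 lower, at an unadjusted p under 0.05. The share of all tested genes at that level, in either direction, was 11.6%, 8.16%, 17.4% and 8.01%. With Vehicle 16 and Vehicle 29 left out, the medians were 0.28, 0.24, 0.28 and 0.23. Fos, the classical activity marker, measured 5.36 ± 1.32 CPM in Vehicle and 9.76 ± 5.47 in Cort (log2 fold change 0.87 ± 0.41, adjusted p = 0.419). Egr1 measured 93 ± 29.4 and 147 ± 64.3 CPM (0.66 ± 0.26, adjusted p = 0.331; SD, n = 4 and 5, edgeR). These log2 fold changes became, without Vehicle 16 and Vehicle 29, 0.88 for Fos and 0.40 for Egr1 (adjusted p = 0.995 for each).

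Within groups, the score of these 20 genes followed Arc with r = 0.83 (rho 0.76) and Npas4 with r = 0.80 (rho 0.80), over 28 libraries that share depth and dissection. Without the 2 libraries farthest from the median the values were 0.76 and 0.71. The score ran from -0.33 to -0.09 in Vehicle, -0.21 to 0.10 in Basal and -0.35 to 0.51 in Cort, so that Cort spanned more than the other groups.

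**Figure D4:**
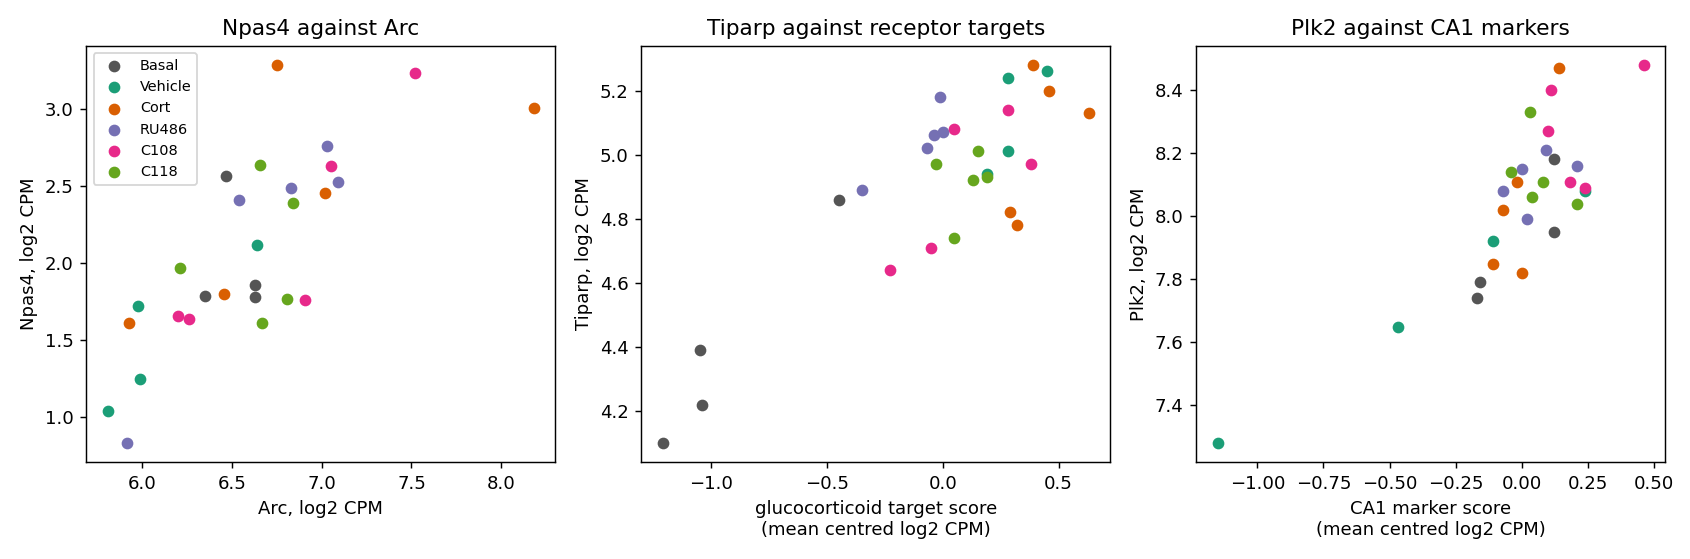
Log2 CPM of Npas4 against Arc, Tiparp against the glucocorticoid receptor target score, and Plk2 against the CA1 marker score, with 1 point per library coloured by group (28 libraries). In the middle panel 3 Basal libraries lie at scores of -1.21 to -1.04 with low Tiparp, and in the right panel Vehicle 16 lies far from the rest at a score of -1.15.

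Among 25 other activity-induced effector genes, 1 rose and 4 fell in Vehicle against Basal (median log2 fold change -0.09), beside 4.11% of tested genes called. Gadd45g, a growth arrest gene, was the one that rose and was named after its values were seen, from 8.28 ± 1.52 to 13.2 ± 2.18 CPM (0.67 ± 0.19, adjusted p = 0.042). Bdnf, a neurotrophin that supports synapse strengthening, fell from 67.8 ± 5.81 to 43.9 ± 9.16 CPM (-0.63 ± 0.14, adjusted p = 0.00618). The potassium channel genes Kcna4 (-1.02 ± 0.14, adjusted p = 7.24e-05) and Kcnj4 (-0.61 ± 0.11, adjusted p = 0.0014) fell, as did the phosphatase gene Dusp6 (-0.68 ± 0.19, adjusted p = 0.0398; all by edgeR, SD with n = 4 each). Without Vehicle 16 and Vehicle 29, Kcna4 (-0.95, adjusted p = 0.00478) and Kcnj4 (-0.58, 0.0113) passed, whereas Bdnf (-0.45, 0.119), Dusp6 (-0.56, 0.309) and Gadd45g (0.83, 0.0528) did not. In that fit 2 of the 25 were called lower and 1 higher, the latter a gene other than Gadd45g. Some region markers were called lower in the same comparison, beside 4.11% of tested genes. They were 3 of 12 for dentate gyrus (C1ql2, Tdo2 and Trpc6), 1 of 8 for CA1 (Ndst4) and 1 of 7 for CA3 (Cdh24), with 0 called higher on these lists. At an unadjusted p under 0.05, 2 were higher and 5 lower for dentate gyrus, 0 and 2 for CA1, and 2 and 1 for CA3. Of 10 thalamus markers 1 was called higher and 0 lower (median log2 fold change 0.93), and of 8 neocortex markers 0 and 1 (median 0.10). The summed dentate gyrus level was 1020 to 1210 CPM in Basal and 831 to 1040 CPM in Vehicle, and its part in these falls was not tested. Against Vehicle 0 of 25 passed in any ligand by edgeR or limma-voom, and DESeq2 passed Rasl11b in C108. At an unadjusted p under 0.05, 10 were higher and 1 lower in Cort, 6 and 1 in RU486, 5 and 0 in C108, and 5 and 1 in C118, beside the shares of all tested genes given above. In C108 the 5 of 25 lie close to the 17.4% of all tested genes. Within groups the score of these 25 genes had r = 0.77 with both Npas4 (rho 0.73) and Nptx2 (rho 0.68), and r = 0.50 with Arc, over the same 28 libraries.

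Of 28 interaction partners of the members, such as glutamate receptor subunits, Shank scaffolds, and relatives and targets of Plk2, Rgs2 and Tiparp, 0 rose and 1 fell in Vehicle against Basal (median -0.08, beside 4.11% of tested genes called). That gene was Plk5, a relative of Plk2, from 31.9 ± 2.27 to 18.8 ± 6.44 CPM (SD, n = 4 each; log2 fold change -0.77 ± 0.19, adjusted p = 0.0186, edgeR). In C108 against Vehicle 0 rose and 1 fell, beside 0.215% of tested genes called. The one that fell was Gria4, an AMPA receptor subunit, from 75.3 ± 17.9 (n = 4) to 54.6 ± 3.28 CPM (n = 5; -0.46 ± 0.10, adjusted p = 0.0384, edgeR). DESeq2 passed Gria1 as higher and Gria4 and Rgs4 as lower there, and limma-voom 0 of 28. In C108 against Vehicle, 9 of 28 were higher and 3 lower at an unadjusted p under 0.05 (median 0.07), beside 17.4% of all tested genes. In Cort, RU486 and C118 against Vehicle 0 of 28 passed by edgeR, DESeq2 or limma-voom. At an unadjusted p under 0.05, 4 were higher and 2 lower in Cort (11.6% of tested genes), 2 and 3 in RU486 (8.16%), and 3 and 2 in C118 (8.01%). When Vehicle 16 and Vehicle 29 were left out, neither Plk5 (-0.56, adjusted p = 0.157) nor Gria4 (-0.14, adjusted p = 0.835) passed. Ahr, the receptor that Tiparp represses, was named after its values were seen. It was lower in Cort (9.47 ± 1.29 CPM, n = 5) than in Basal (12.3 ± 0.698 CPM, n = 4), with a log2 fold change of -0.38 ± 0.11 (adjusted p = 0.027, edgeR). Of the 28 partners it was the only one called there, beside 6.27% of tested genes. By edgeR 0 of 28 passed in RU486 against Basal, beside 5.45% of tested genes. There DESeq2 passed Ahr as lower and limma-voom passed 0. In C108 and in C118 against Basal 1 of 28 fell and 0 rose by edgeR, beside 6.04% and 3.87% of tested genes.

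Some of the receptor targets differed between Cort and RU486, where 0.0538% of all tested genes were called. Of 15 targets 3 were higher in Cort and 0 lower, namely Fkbp5 (167 ± 9.89 against 114 ± 8.28 CPM, adjusted p = 0.00557), the cell cycle inhibitor Cdkn1a (54.8 ± 15.2 against 15.5 ± 4.46 CPM, adjusted p = 0.00557) and the transcription factor Zbtb16 (82.7 ± 7.6 against 58.6 ± 7.68 CPM, adjusted p = 0.0385; SD, n = 5 each, edgeR). Tiparp, which tracked the target score within groups, measured 33.2 ± 5.17 CPM in Cort and 33 ± 2.39 CPM in RU486 (log2 fold change 0.01, adjusted p = 0.997). Against Vehicle 0 of 15 targets passed in any ligand by edgeR or limma-voom, with 3 higher in Cort and 8 lower in RU486 at an unadjusted p under 0.05. In C108 1 was higher and 4 were lower at that level, and in C118 3 were lower, beside the shares of all tested genes given above. DESeq2 passed Fkbp5 as higher in Cort and Pdk4 and Cdkn1a as lower in RU486.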

How the data were processed

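Raw counts for each Ensembl gene were deposited by the authors, who used HTSeq 0.6.1 and genome build mm10, per the submitters' processing notes, which also name FastQC and MultiQC. Per the labels' protocols, libraries were stranded and sequenced as 100 bp paired ends on a DNBseq instrument. Aligner, annotation release and strand setting were not given in the sources used. The 5 summary rows, 12.633 to 19.74% of each column, entered neither library sizes nor tests, and 0 columns were without a sample. Within groups no 2 libraries agreed within sampling noise (lowest chi-square per degree of freedom 5.938).

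Gene counts were filtered with filterByExpr (minimum count 10, minimum total 15), scaled by TMM and fitted in 1 robust quasi-likelihood model of edgeR 4.0.16 (R 4.3.3) covering 28 libraries and 6 groups, with 22 residual degrees of freedom. Tests were two-sided. Benjamini-Hochberg adjustment covered the 16735 tested genes at a threshold of 0.05. SE is the log2 fold change over the square root of F. Log2 CPM used a prior count of 2. Alternatives were RLE scaling, DESeq2 1.42.0, limma-voom (limma 3.58.1), other filters, fits of 2 groups, covariates, omission of libraries and, added after the data were seen, a block of sample number runs and omission of Cort 36, C118 38 and C108 39. The fit was tested on simulated data. Positions are from GENCODE M21.

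The members and gene lists were chosen with earlier results of these data known. The 7 members were named in every comparison, with the 3 genes most like each (1 of them is not reported here), Fkbp5, Fos and Egr1, and up to 4 genes with the smallest p of each pathway list that passed in Vehicle against Basal, in a ligand against Vehicle or between ligands. Genes named for a call by DESeq2 or limma-voom were chosen after their values were seen.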

Additional observations from a re-analysis of the deposited data

Results flagged for a closer look

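In 6 of the 42 groups formed by 7 genes and 6 treatments, 1 library lay far from the others of its group relative to the spread of that group. Chance alone flags about 1 in 20 groups. Arc in Vehicle 23 was 99.5 CPM, with the nearest other Vehicle library at 63.3 CPM. Npas4 in Basal 14 was 5.84 CPM, with the nearest other Basal library at 3.53 CPM, and in RU486 12 it was 1.67 CPM, with the nearest at 5.22 CPM. Homer1 in C118 7 was 173 CPM, with the nearest at 132 CPM. Nptx2 in C118 38 was 41.3 CPM, with the nearest at 27.6 CPM. C118 38 also stood apart from its group in scores for neuron (0.28), astrocyte (-0.61), microglia (-0.43) and endothelial markers (-1.35), and their part in this value was not tested. Rgs2 in C108 8 was 30.5 CPM, with the nearest at 42 CPM.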

How the results depend on the processing

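Of 70 member fold changes, 795 of 840 values under alternatives other than omitting 1 library kept their direction and their side of the threshold, as did 1888 of 1960 values with 1 library left out. The Tiparp call in Vehicle against Basal held in all of them. With thalamus and neocortex scores as covariates, Tiparp lost its call in the 6-group test (adjusted p = 0.129) and against Basal in Cort (log2 fold change 0.56), RU486 (0.58), C118 (0.46) and C108 (0.49), and in fits of only the 2 groups it lost it in C108 (0.5) and C118 (0.5). Without Cort 36, C118 38 and C108 39, an omission chosen after the data were seen, it lost it in C108 (0.46). Nptx2 in Cort against Basal lost its call there (0.45), with runs of sample numbers as a block (0.46), by limma-voom (0.54), without a filter (0.56), with the sample number (0.53), with thalamus and neocortex scores (0.43) and with dentate gyrus and CA1 scores (0.49), and Nptx2 in RU486 against Basal gained one in a fit of the 2 groups (0.35). By DESeq2, Plk2 passed in the 6-group test (adjusted p = 0.0417) and in C108 against Vehicle (0.51), where it also passed with the runs as a block (0.47). Members called thus became 2 (DESeq2) or 0 (thalamus and neocortex scores) in the 6-group test, 1 in C108 against Vehicle (DESeq2, and the block), and against Basal 1 or 0 in Cort, 2 or 0 in RU486, and 0 in both C108 and C118.

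Small changes turned in sign, the largest at 0.34. With thalamus and neocortex scores these were, against Basal, Arc in C118 (-0.03), Homer1 in Cort (0.04), RU486 (0.04) and C118 (0.06), Plk2 in Cort (-0.03), RU486 (-0.05) and C118 (-0.06), and Rgs2 in C108 (0). In Cort against RU486 they were Homer1 (0.01), Plk2 (0.02) and Tiparp (-0.02), and against Vehicle Nptx2 in C108 (0.13) and C118 (0.01). With dentate gyrus and CA1 scores they were Arc (-0.02) and Homer1 (0.01) in C118 against Basal, Plk2 in Vehicle against Basal (0.1) and Tiparp in Cort against RU486 (-0.03). Without Vehicle 16 and Vehicle 29 they were Plk2 in Vehicle against Basal (0.08) and Nptx2 in RU486 against Vehicle (-0.03). By limma-voom they were Nptx2 in C108 against Vehicle (0.06) and Tiparp in Cort against RU486 (0), and with the sample number Rgs2 in C118 against Vehicle (-0.01). With the runs as a block they were Npas4 in C108 (-0.13) and C118 (-0.02) against Basal and Tiparp in Cort against RU486 (-0.03). Without Cort 36, C118 38 and C108 39 they were Npas4 in Cort against RU486 (-0.01), Homer1 in C118 against Basal (0.03) and Rgs2 in C118 against Vehicle (-0.04). The causes were not tested.

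With 1 library left out, Tiparp ranged from 0.000837 to 0.11 (adjusted p) in the 6-group test, 0.41 to 0.68 in C108 and 0.40 to 0.68 in C118 against Basal. Nptx2 in Cort against Basal ranged from 0.45 to 0.61. Plk2 ranged from 0.0358 to 0.246 (adjusted p) in the 6-group test and from 0.39 to 0.64 in C108 against Vehicle. For Homer1 against Basal the range was -0.14 to 0.02 with Cort, -0.08 to 0.08 with C108, -0.11 to 0.09 with C118 and -0.11 to 0.05 with RU486. Npas4 against Basal ranged from -0.05 to 0.54 in C108 and -0.08 to 0.32 in C118, and Rgs2 in C108 from -0.04 to 0.08. Against Vehicle, Nptx2 ranged from -0.13 to 0.22 with RU486, -0.19 to 0.15 with C108 and -0.24 to 0.1 with C118, and Rgs2 from 0 to 0.14 in RU486 and -0.06 to 0.08 in C118. In Cort against RU486 the ranges were -0.15 to 0.52 for Arc, -0.01 to 0.41 for Npas4, -0.1 to 0.01 for Homer1, -0.17 to 0.01 for Plk2 and -0.05 to 0.06 for Tiparp. Members called ranged from 0 to 2 in the 6-group test, 0 to 1 in C108 against Vehicle, 1 to 2 in Cort, 0 to 1 in C108 and 0 to 1 in C118 against Basal.

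Genes called numbered 792 in the 6-group test (249 to 1496 over the other alternatives), 688 in Vehicle against Basal (355 to 1759), 1 in Cort against Vehicle (0 to 85), 0 in RU486 against Vehicle (0 to 45), 36 in C108 against Vehicle (0 to 295) and 0 in C118 against Vehicle (0 to 45). Against Basal they numbered 1049 with Cort (285 to 1614), 1010 with C108 (171 to 1343), 912 with RU486 (101 to 1960) and 648 with C118 (62 to 1452), and 9 in Cort against RU486 (2 to 29). With 1 library left out the counts ran from 316 to 1176 in the 6-group test and from 346 to 940 in Vehicle against Basal. Against Vehicle they ran from 0 to 170 for Cort, 0 to 207 for RU486, 0 to 656 for C108 and 0 to 214 for C118. Against Basal the ranges were 595 to 1194 for Cort, 275 to 1178 for RU486, 292 to 1496 for C108 and 209 to 902 for C118, and 3 to 12 genes were called in Cort against RU486. The shares of called genes given beside the members move with these counts.

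Each sample number occurs in 1 group, but the numbers pass through the groups in a fixed order in 6 runs, and the labels do not say what a run is. Deviations from group means correlated at over 0.1 in 36 of 57 pairs of libraries within a run (median 0.14, against -0.02 between runs), and at 0.48 to 0.56 within the run of Cort 36, C118 38 and C108 39. Of 28 libraries, 12 were most alike to one of their own run. The pairing is thus a hint from the data, and the block was added after they were seen. It called 1759 genes in Vehicle against Basal. At the mean count, counting noise alone gives a coefficient of variation of 0.0223 for Arc and 0.107 for Npas4, beside the BCV of 0.344 and 0.387.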
